A study of Mus musculus with 4 samples.

Results

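The TGF-beta genes described here encode the ligands (Tgfb1, Tgfb2 and Tgfb3), their receptors (Tgfbr1, Tgfbr2 and Tgfbr3) and the latent TGF-beta binding proteins (Ltbp1, Ltbp2, Ltbp3 and Ltbp4). These 10 genes were taken by name from the 21154 genes that could be named on a mouse expression array, through the RefSeq accession that the files give for each probe, and 15 probes stood for them. The cells were primary MSCs of the mouse (mesenchymal stromal cells) at passage 5 in all groups. Retrovirally delivered short hairpin RNAs against Islr, which encodes Meflin, an immunoglobulin superfamily protein, gave 3 cultures, each with its own target sequence (labelled shlSLR no.1 to no.3, called hairpins 1, 2 and 3 here). The control was 1 culture labelled shControl. Each culture was read on 1 one-colour array. No label tells if the cultures share a preparation or an animal. A group size of 3 therefore counts hairpins, p-values measure only the spread between these arrays, and the control has no spread of its own.

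TGF-beta is secreted as an inactive complex, in which the propeptide stays wrapped around the ligand and is usually bound to a latent TGF-beta binding protein that anchors it to fibrillin and fibronectin fibres. Integrins and proteases release the ligand, which binds the type II receptor encoded by Tgfbr2. That receptor recruits and phosphorylates the type I receptor encoded by Tgfbr1, which in turn phosphorylates Smad2 and Smad3, while betaglycan, the product of Tgfbr3, presents the ligand and is needed most for the Tgfb2 product. In MSCs and fibroblasts this pathway is known for driving matrix and contractile genes.

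On the targeted gene, Islr had signals of 11.01, 70.5 and 3.44 on hairpins 1, 2 and 3, against 454 on the control array, and the scanner software did not call it well above background on hairpins 1 and 3. Between 49.4% and 53.8% of the features that are not controls were called well above background on the 3 hairpin arrays, against 50.9% on the control array, and no feature was saturated. Of 15 MSC markers, 14 or 15 were above background on each hairpin array and 15 on the control array, Islr itself being the missing one. Of 12 haematopoietic and macrophage markers, 6 or 7 were above background on the hairpin arrays, with a summed signal of 18.4 to 28.9 times the 75th percentile of the array, against 6 and 27.0 times on the control array. Ptprc, Adgre1, Lyz2, Tyrobp and Laptm5 were above background on none of the 4 arrays, while Itgam, Csf1r, Cd68, Cd14, Fcer1g and Cd48 were on all 4. Of 9 endothelial markers, 2 to 4 were above background on the hairpin arrays and 3 on the control array (summed signal 7.74 to 8.42 times, against 8.28 times). Cdh5, Tek, Emcn, Tie1 and Cldn5 were above background on none of the 4 arrays, and Kdr and Pecam1 on all 4. Kdr had signals of 3303, 3251 and 3357, against 3532 on the control array. Of 8 epithelial markers, 3 to 5 were above background on the hairpin arrays and 4 on the control array (summed signal 1.20 to 3.08 times, against 0.681 times). Epcam, Cdh1 and Krt8 were above background on none of the 4 arrays, and Krt18 and Krt19 on all 4. The part of these cells in the values below was not tested.

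Most TGF-beta genes had a mean signal below the control in the Islr hairpin cultures, but no member passed the test. All differences below are log2, hairpin minus control, of signals scaled to the 75th percentile of each array, and means are over the 3 hairpins with their SD (n = 3) against the 1 control array. The mean difference was below 0 for 9 of 10 members (48.6% of the 13565 genes kept above background) and above 0 for Tgfb2. Their median mean difference was -0.35, beside 0.01 for all genes kept. Array by array, the members had medians of -0.29, -0.32 and -0.47 for hairpins 1, 2 and 3, beside -0.01, 0.00 and 0.05 for all genes kept. Below the control on all 3 hairpins were 5 of 10 members, Tgfb3, Tgfbr2, Tgfbr3, Ltbp1 and Ltbp3, where 24.6% of all genes kept did the same. Above the control on all 3 were 0 of 10, where 27.6% of all genes kept did so. Because the 3 differences share the control array, its own error moves them together.

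In limma's moderated test over all 13565 genes kept, called at 0.05 after Benjamini-Hochberg adjustment, 0 of 10 members passed. The targeted gene Islr did not pass either, at a mean difference of -4.98 ± 2.19 (limma adjusted p = 0.964). A gene that did not pass is therefore not shown to be unchanged. Islr was not above background on hairpins 1 and 3, so its size and spread are not firm (-2.61 ± 0.63 with normexp). Its spread does not stand for that of the members. The test called 0.346% of all genes lower (47 genes) and 0 higher, and the lower calls numbered 0 when signal was required on all 4 arrays, without a filter, with normexp background correction, with an intensity trend or with any 1 hairpin left out. At an unadjusted p under 0.05 the test gave 3.31% lower and 1.52% higher, with Tgfbr2 as the 1 member among them. The lower shares here and by size include genes at background on the hairpins, kept through the control array. All 10 members had signal on all 4 arrays. With that required, 266 of 12722 genes were lower and 201 higher at an unadjusted limma p under 0.05. By size, 0 of 10 members were at least 2-fold lower on all 3 hairpins (1.69% of all genes kept) and 0 of 10 at least 1.5-fold lower (3.04%). Likewise 0 of 10 were at least 2-fold higher on all 3 (0.236%) and 0 of 10 at least 1.5-fold higher (0.958%). Most members had bright probes, so the same measures were taken over genes of like signal, a split chosen after the values were seen. In the 1540 genes whose mean scaled log2 signal lay between 4 and 6, which hold Tgfbr3, Ltbp1, Ltbp2 and Ltbp3, the median mean difference was 0.06, and 18.4% lay below the control on all 3 hairpins. In the 3120 genes between 2 and 4, which hold Tgfb2, Tgfb3 and Ltbp4, these values were 0.04 and 20.5%. Every array here holds the RNA of a whole culture, so fewer cells of a type and less RNA per cell cannot be told apart.

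**Figure D1:**
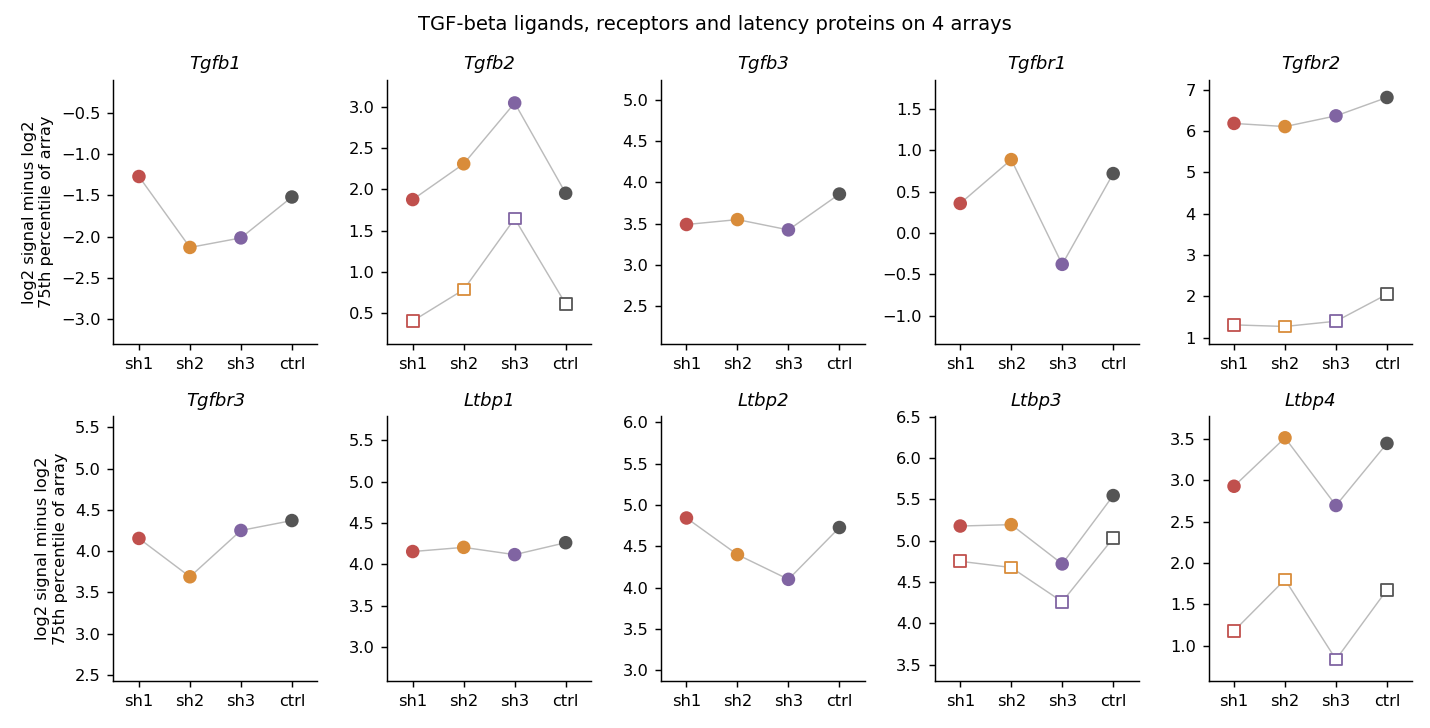
Scaled log2 signal of each of the 10 genes (vertical axis, log2 signal minus log2 75th percentile of the array) on hairpins 1, 2 and 3 (sh1 to sh3) and the control array (ctrl). Filled circles are the probe that stands for the gene and open squares another probe above background, and each point is 1 array. The vertical scales differ between genes because probes of different genes cannot be set against each other. The lines of both probes run alike for Tgfb2, Tgfbr2, Ltbp3 and Ltbp4.

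Among the ligands, Tgfb3 was lower by about the same amount in each Islr hairpin culture, Tgfb1 was lower on hairpins 2 and 3 and higher on hairpin 1, and Tgfb2 was highest on hairpin 3. None of the ligand genes passed the test. Tgfb3, whose product acts in palate fusion and wound repair, was read by 10 spots of 1 probe on every array. Its signal, as the geometric mean of the spots, was 4655, 5091 and 4650 on hairpins 1, 2 and 3, against 6411 on the control array, so that the control was the highest. The spots ran between 4361 and 5013 on hairpin 1, between 4704 and 5244 on hairpin 2 and between 4445 and 4996 on hairpin 3, against between 6031 and 6960 on the control array, with no overlap between any hairpin and the control. The log2 differences were -0.37, -0.31 and -0.43, with a mean of -0.37 ± 0.06 (1.29-fold lower, limma adjusted p = 0.964, 95% interval of the mean difference -0.87 to 0.12). The spread of these 10 spots within an array was 0.04 to 0.07 (SD of log2) on the hairpin arrays and 0.05 on the control array. Spots of an array share its RNA and are not replicates, so no test was made over them. Over 244 probes with repeated spots, the median spot SD was 0.07 on hairpin 1. It was 0.06 on hairpins 2 and 3 and on the control array. The spot ranges are of signals before scaling, and their separation reflects this small spot spread as well as the difference. How many other probes separate likewise is not given here.

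Tgfb1, the most widely expressed ligand gene and a fibrotic and immune regulator, also had 10 spots of 1 probe. Its signal was 172, 99.4 and 107 on hairpins 1, 2 and 3, against 154 on the control array. The spots ran from 156 to 186 on hairpin 1, from 87.1 to 117 on hairpin 2 and from 98.4 to 122 on hairpin 3, against 140 to 170 on the control array. Before scaling, hairpin 1 thus overlapped the control, while hairpins 2 and 3 lay below it. After scaling, 1 of 10 spots on hairpin 1 was below the same spot of the control array. On hairpins 2 and 3, 10 of 10 were. How many other probes with repeated spots do likewise is not given here. The log2 differences were 0.25, -0.61 and -0.49, with a mean of -0.29 ± 0.47, which is smaller than the spread between hairpins (limma adjusted p = 0.972). Without hairpin 1 the mean difference was -0.55, and without hairpin 2 it was -0.12.

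**Figure D2:**
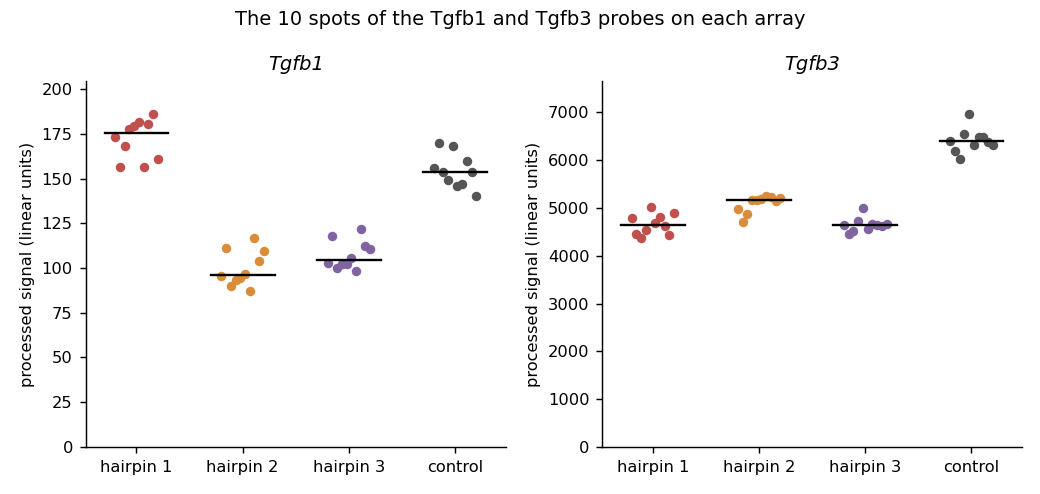
Processed signal in linear units (vertical axis, from 0) of the 10 spots of the Tgfb1 probe and of the Tgfb3 probe on hairpins 1, 2 and 3 and the control array. Signals are before scaling. Each point is 1 spot, spots of an array are not replicates, and the bar is the median of the spots. For Tgfb3 all control spots lie above all hairpin spots, from 6031 upward, and for Tgfb1 hairpin 1 overlaps the control while hairpins 2 and 3 lie lower.

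Tgfb2, a ligand gene needed in heart and skeletal development, was the 1 member with a mean above the control. Its signal was 1520, 2154 and 3573 on hairpins 1, 2 and 3, against 1711 on the control array. Hairpin 3 was 213% of the control and hairpin 1 was 94.8% of it, so the hairpins lay on both sides. The log2 differences were -0.08, 0.36 and 1.09 (mean 0.46 ± 0.59, limma adjusted p = 0.969). A separate probe of the gene gave signals of 549, 750 and 1355, against 676 on the control array, and differences of -0.21, 0.17 and 1.03, in the same order of arrays. On hairpin 3, 97.3% of all genes kept had a difference at or below that of Tgfb2. Without hairpin 3 the mean difference was 0.14, and without hairpin 1 it was 0.72, with hairpins 2 and 3 both above the control.

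Promoter windows are shown for the ligand gene that ran against the other members, Tgfb2, and for the receptor and the binding protein genes with the lowest mean differences, Tgfbr2 and Ltbp3. The windows are RefSeq's (GRCm38.p6), from 250 bases before to 50 bases after a gene start, and the array itself was designed on another build, mm9. RefSeq windows were found for 8 of 10 members, in 12 windows, and Tgfb3 and Tgfbr3 had no entry. Capitals mark matches, on either strand, to 7 motifs, which are spelled out under the windows.
Tgfb2, chr1:186705940-186706239, minus strand: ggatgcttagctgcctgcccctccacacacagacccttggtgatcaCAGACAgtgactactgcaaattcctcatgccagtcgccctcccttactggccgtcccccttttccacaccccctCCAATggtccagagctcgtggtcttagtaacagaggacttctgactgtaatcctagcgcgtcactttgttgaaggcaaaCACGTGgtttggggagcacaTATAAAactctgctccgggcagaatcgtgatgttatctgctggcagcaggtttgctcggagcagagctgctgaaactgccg
Tgfbr2, chr9:116175314-116175613, minus strand: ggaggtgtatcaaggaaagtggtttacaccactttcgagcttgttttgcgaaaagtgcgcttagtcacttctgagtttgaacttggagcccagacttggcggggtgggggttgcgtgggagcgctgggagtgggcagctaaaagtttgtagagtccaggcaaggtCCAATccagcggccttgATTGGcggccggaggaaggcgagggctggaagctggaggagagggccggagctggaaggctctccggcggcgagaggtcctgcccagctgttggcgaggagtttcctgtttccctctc
Ltbp3, chr19:5740650-5740949, plus strand: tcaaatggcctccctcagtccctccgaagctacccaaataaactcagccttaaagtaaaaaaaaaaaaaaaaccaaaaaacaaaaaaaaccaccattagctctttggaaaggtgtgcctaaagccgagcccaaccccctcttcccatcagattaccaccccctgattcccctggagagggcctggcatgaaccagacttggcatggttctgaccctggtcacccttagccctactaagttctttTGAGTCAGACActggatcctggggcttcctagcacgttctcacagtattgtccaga
The Tgfb2 window held the TATA box letters TATAAA once, near the gene start, as do 13.6% of all 32851 windows. It also held the E-box letters CACGTG once, which occur in 7.15% of windows. Its Smad box match, spelled CAGACA, is of a kind found in 21% of windows. The pentamer CCAAT occurred once in the Tgfb2 window and on both strands of the Tgfbr2 window, and it is in 37.4% of windows. None of the other motifs matched in the Tgfbr2 window. The Ltbp3 window held the AP-1 letters TGAGTCA, present in 5.2% of windows, and their last letters overlap a Smad box. The GC box, searched as GGGCGG and found in 35.7% of windows, matched in none of these windows. Neither did the CRE core, searched as TGACGTCA and found in 1.79% of windows. A match describes letters in the window and not a bound site.

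Among the receptors, Tgfbr2 had the largest mean difference of all members with signal on all 4 arrays, and it was lower in every Islr hairpin culture. Tgfbr2 encodes the type II receptor, a serine and threonine kinase that binds the ligand. Its signal was 30124, 29983 and 35737 on hairpins 1, 2 and 3, against 49631 on the control array, so each hairpin kept between 61.4% and 73.5% of the control level. The log2 differences were -0.63, -0.70 and -0.44, with a mean of -0.59 ± 0.13 (1.51-fold lower). This is larger than the spread between the hairpins, but it did not pass the test over all genes (limma adjusted p = 0.964, 95% interval of the mean difference -1.14 to -0.04). A mean difference at or below that of Tgfbr2 was found in 7.25% of all genes kept. The other probe of Tgfbr2 had signals of 1030, 1053 and 1145, against 1835 on the control array, and a mean difference of -0.72 ± 0.06.

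Tgfbr1, the gene of the type I receptor kinase, varied most between the hairpins. Its signal was 532, 807 and 334 on hairpins 1, 2 and 3, against 729 on the control array. Hairpin 3 stood at 46.7% of the control and hairpin 2 at 112% of it. The log2 differences were -0.36, 0.17 and -1.10 (mean -0.43 ± 0.64, limma adjusted p = 0.969), with a range of 1.27 between hairpins. Leaving out hairpin 2 gave a mean difference of -0.73, and leaving out hairpin 3 gave -0.10. A second Tgfbr1 probe had signals of 7.80, 18.5 and 4.05, against 20.7 on the control array, was above background on none of the 4 arrays and gives no value. Tgfbr3, the betaglycan gene, had signals of 7384, 5618 and 8252, against 9151 on the control array. All 3 hairpins were below the control, with log2 differences of -0.22, -0.68 and -0.12 (mean -0.34 ± 0.30, limma adjusted p = 0.964), and without hairpin 2 the mean difference was -0.17.

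Among the latent TGF-beta binding proteins, Ltbp3 was lower on all 3 hairpins, Ltbp1 stood close to the control, and Ltbp2 and Ltbp4 differed between hairpins. Ltbp3, which binds the latent complex and is needed for normal bone and tooth growth, had signals of 14993, 15922 and 11402, against 20649 on the control array. Hairpin 3 was the lowest at 56.4% of the control, and hairpins 1 and 2 were close together at 77.5% and 78.4%. The log2 differences were -0.37, -0.35 and -0.83 (mean -0.52 ± 0.27, 1.43-fold lower, limma adjusted p = 0.964). The other Ltbp3 probe had signals of 11152, 11115 and 8303, against 14451 on the control array, and a mean difference of -0.47 ± 0.26.

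Ltbp1, a widely expressed binding protein gene that anchors latent ligand to fibrillin microfibrils, had signals of 7389, 8032 and 7524, against 8489 on the control array. All 3 hairpins lay just below the control, at 90.5% to 96.2% of it. The mean log2 difference was -0.10 ± 0.04 (limma adjusted p = 0.974, 95% interval of the mean difference -0.59 to 0.38). Ltbp2, whose product binds microfibrils but is not known to bind latent ligand, had signals of 11887, 9176 and 7427, against 11708 on the control array. Hairpin 1 was above the control and hairpins 2 and 3 below it, with log2 differences of 0.12, -0.33 and -0.63 (mean -0.28 ± 0.37, limma adjusted p = 0.969). The mean difference of Ltbp2 was -0.48 without hairpin 1 and -0.11 without hairpin 3.

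Ltbp4, a binding protein gene needed for elastic fibres in the lung, had signals of 3155, 4971 and 2806, against 4822 on the control array. Hairpins 1 and 3 were lower, at 69.8% and 59.4% of the control, and hairpin 2 was at 105%. Its log2 differences were -0.52, 0.07 and -0.75 (mean -0.40 ± 0.42, limma adjusted p = 0.964). The other Ltbp4 probe gave -0.50, 0.12 and -0.84. The mean difference of Ltbp4 was -0.64 without hairpin 2 and -0.23 without hairpin 3.

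**Figure D3:**
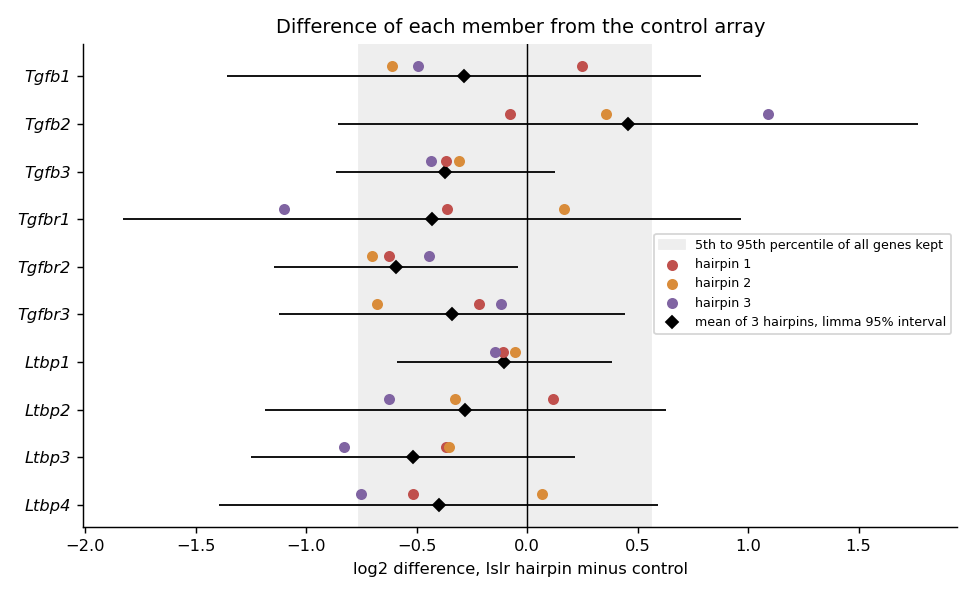
Log2 difference from the control array (horizontal axis, Islr hairpin minus control) of each of the 10 genes, top to bottom. Coloured points are the single hairpins, black diamonds are the mean of the 3 hairpins with limma's 95% interval, and the grey band spans the 5th to the 95th percentile of the mean difference over all genes kept (-0.76 to 0.56). All 10 means lie within the band, and the Tgfbr2 interval, -1.14 to -0.04, alone does not cross 0.

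The members differed in how alike the 3 hairpins were, a measure that does not use the control array. Over the 12716 genes above background on all 4 arrays, the median range of the log2 values between hairpins was 0.37. Ltbp1 (range 0.09), Tgfb3 (0.12) and Tgfbr2 (0.26) were below this median. The range was 0.48 for Ltbp3, 0.56 for Tgfbr3 and 0.74 for Ltbp2. It was 0.82 for Ltbp4, 0.86 for Tgfb1, 1.17 for Tgfb2 and 1.27 for Tgfbr1, and 94.8% of these genes had a range at or below that of Tgfbr1. Hairpin 3 had the lowest value of the 3 hairpins for Tgfb3, Tgfbr1, Ltbp1, Ltbp2, Ltbp3 and Ltbp4 and the highest for Tgfb2, Tgfbr2 and Tgfbr3. Over the same 12716 genes, hairpin 3 also lay farthest from the control, with a root mean square difference of 0.54, beside 0.38 for hairpin 1 and 0.43 for hairpin 2. Some members had more than 1 probe above background. The largest gap between the differences of their probes on any hairpin was 0.09 for Ltbp3 and Ltbp4, 0.18 for Tgfb2 and 0.21 for Tgfbr2. Over 3344 genes with such probes the median gap was 0.12, taken over the gaps on single hairpins and not over the largest of each gene.

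The genes whose pattern over the 4 arrays was most like that of Tgfbr2, by the root mean square distance of values centred on each gene's mean, were Tlcd2 (distance 0.03), Snx33 (0.03) and Ogfod3 (0.04), out of 12715 other genes above background on all 4 arrays. With 4 arrays, a small distance says only that these genes were lower by a like amount on each hairpin.

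No gene that anchors or activates the latent complex passed the test. Of 31 listed genes 28 were kept, 10 were below the control on all 3 hairpins (24.6% of all genes kept), 2 were above it on all 3 (27.6% of all genes kept) and 16 went both ways. The median mean difference of the list was -0.31, beside 0.01 for all genes kept. Asporin, encoded by Aspn and known to bind TGF-beta, had signals of 65.8, 51.2 and 27.4, against 231 on the control array, and a mean log2 difference of -2.31 ± 0.68 (limma adjusted p = 0.673). Igf2r, the mannose 6-phosphate receptor gene that can bind the latent complex, had signals of 3157, 3328 and 2162, against 5683 on the control array (mean log2 difference -0.96 ± 0.35). The fibrillin gene Fbn1, named after its value was seen because the binding proteins attach to fibrillin, was at -0.81 ± 0.18. On the other side were Itgb6, the gene of an integrin subunit that activates latent TGF-beta, at 0.89 ± 1.14, and the proteoglycan gene Fmod at 0.62 ± 0.91, both with a spread above their mean and both highest on hairpin 3 (2.13 and 1.67). Without hairpin 3 they were at 0.26 and 0.10. The proprotein convertase gene Furin, whose product cleaves the propeptide, was at 0.07 ± 0.17, and the integrin gene Itgav at -0.36 ± 0.41, both named after their values were seen.

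Co-receptors and receptor relatives had no call either. All 16 listed genes were kept and 0 passed. Below the control on all 3 hairpins were 6 (24.6% of all genes kept) and above it 4 (27.6% of all genes kept), and the median mean difference was -0.17. The TGF-beta co-receptor gene Cd109, whose product inhibits signalling, was at 1.12 ± 0.67, with signals of 342, 860 and 739, against 287 on the control array. The activin receptor gene Acvr2a was at 0.41 ± 0.64, the neuropilin gene Nrp2 at -0.56 ± 0.40 and the BMP receptor gene Bmpr1a at -0.40 ± 0.33. Each rested in part on 1 array, since Acvr2a was at 0.04 without hairpin 1, Bmpr1a at -0.22 without hairpin 2 and Nrp2 at -0.33 without hairpin 3. Bambi, the decoy receptor gene, was named after its value was seen, as the smallest adjusted p of the lists (limma adjusted p = 0.0683). Its signals were 4.89, 4.46 and 3.56, not well above background on any hairpin, against 29.2 on the control array. Bambi was kept only through the control array, so its p rests on hairpin values at background. With each hairpin set to the lowest signal called above background on its array, Bambi would be 1.56-fold lower. Some probes with a signal above that lowest value were not called, and the control is 1 array, so this is not a firm bound.

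Smads and their regulators were spread around the control. All 24 listed genes were kept and 0 passed. Below the control on all 3 hairpins were 6 (24.6% of all genes kept) and above it 9 (27.6% of all genes kept), with a median mean difference of 0.11. The ubiquitin ligase genes Wwp1 (0.61 ± 0.42) and Smurf1 (0.59 ± 0.19) had the largest positive means, and the endocytic adaptor gene Dab2 (-0.49 ± 0.09) and Trim33 (-0.43 ± 0.18) the largest negative means. The receptor-regulated Smads, named after their values were seen, went apart, with Smad3 at -0.32 ± 0.20 and Smad2 at 0.26 ± 0.06, and Smad4 stood at -0.03 ± 0.10.

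No TGF-beta target gene of the list passed the test. Of 42 listed genes 40 were kept, among them the members Tgfb1 and Ltbp2. Below the control on all 3 hairpins were 7 (24.6% of all genes kept) and above it 13 (27.6% of all genes kept), and the median mean difference was 0.16, beside 0.01 for all genes kept. Id1, which answers to BMP as well as to TGF-beta, had signals of 2182, 1598 and 3833, against 1277 on the control array, and a mean log2 difference of 0.94 ± 0.64 (limma adjusted p = 0.964). The lysyl oxidase gene Lox had signals of 4662, 4425 and 3115, against 9062 on the control array (-1.13 ± 0.34, limma adjusted p = 0.847), and the fibrillar collagen gene Col3a1 was at -1.35 ± 0.84. Without hairpin 3, Id1 was at 0.61 and Col3a1 at -0.86. Other matrix and contractile targets were named after their values were seen. The contractile genes Acta2 (0.42 ± 0.32), Tagln (0.53 ± 0.21) and Cnn1 (0.58 ± 0.38) were above the control on all 3 hairpins. The collagen genes Col1a1 and Col1a2 were at -0.18 ± 0.20 and -0.11 ± 0.13.

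**Figure D4:**
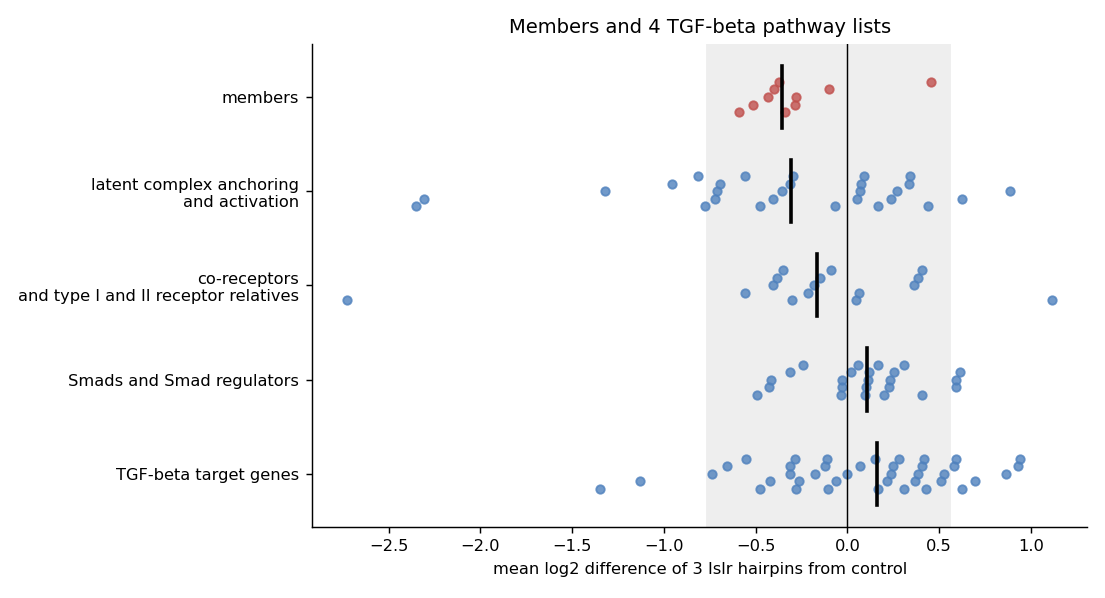
Mean log2 difference of the 3 Islr hairpins from the control array (horizontal axis) for the 10 members (red) and the kept genes of 4 TGF-beta pathway lists (blue), 1 point a gene and a black bar at each median. The grey band spans the 5th to the 95th percentile over all genes kept. The medians run from -0.35 for the members to 0.16 for the target genes.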

How the data were processed

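RNA was labelled with Cy3 and hybridised to 4 one-colour arrays on 1 slide. Per the file headers, the authors scanned an mm9-based design, 028005, and extracted it under GE1_1105_Oct12 in Agilent Feature Extraction 11.5.1.1, and the deposited processed signal intensity is background-subtracted and detrended within each array. The deposited series table held that intensity times 1 factor per array (2.25, 2.08 and 2.02 for hairpins 1 to 3 and 2.10 for the control), whose origin is not given in the sources used here.

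Log2 signals were scaled by the 75th percentile of each array (415, 435 and 433 on hairpins 1 to 3 and 442 on the control), and spots of a probe were averaged. Of 55681 probes, 28026 were named by matching accessions without versions to RefSeq. A probe was kept if over 50% of its spots were called well above background on the control or on all 3 hairpin arrays. The brightest kept probe stood for a gene. The 3 hairpins were compared with the control by limma 3.58.1 in R 4.3.3, fitted over all 13565 genes kept and tested on simulated data, on the assumption that the lone control varies like the hairpins. The number of arrays limits the precision. Named were all members, Islr, and per list the 2 highest and 2 lowest mean differences among genes above background on all 4 arrays. Of the target genes, 1 named by this rule is not reported here. The alternatives were other normalizations, background corrections, filters and probe summaries, the series table, flagged spots left out, an intensity trend, and each hairpin left out. The members and lists were chosen with earlier results of these data known.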

Additional observations from a re-analysis of the deposited data

How the results depend on the processing

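For the 10 members, 124 mean differences were recomputed over 13 alternative settings, and in these settings none reversed and no member passed the adjusted threshold. Part of these settings could not move a member's mean difference. The series table, no filter, signal required on all 4 arrays and the intensity trend leave it unchanged by construction. So does averaging probes for members with 1 kept probe. Leaving out flagged spots changed no member read by 1 spot a probe, and median centring moved all members by the same small amount. A member below the control on all 3 hairpins could not reverse with 1 hairpin left out. Members below the control on all hairpins were 5 in each setting that kept 3 hairpins and 5 to 7 with 1 hairpin left out. Members above it were 0, and 0 to 1 with 1 hairpin left out, the 1 being Tgfb2 without hairpin 1. With 1 hairpin left out the rule asks for fewer arrays, so neither count could fall. The share of all genes kept under that weaker rule is not given here. Outside the calls, normexp moved the mean differences of Islr to -2.61, Aspn to -1.35, Tgfb1 to -0.16, Trim33 to -0.23, Itgb6 to 0.50, Fmod to 0.42 and Acvr2a to 0.27, and averaging probes moved Nrp2 to -0.26. Over all genes, the 47 lower calls became 75 with quantile normalization, 81 at an adjusted p under 0.10, and 0 with normexp, without a filter, with signal above background required on all 4 arrays (which removes genes with no signal on the hairpins by its construction) or with an intensity trend. They numbered 0 to 0 with 1 hairpin left out. In place of the test, the 2-fold rule gave 229 lower and 32 higher genes and the 1.5-fold rule 413 and 130, and 2 were called higher at an adjusted p under 0.10. The cause of the other changes was not tested. No paired analysis was possible because the labels do not pair the single control with any hairpin. All arrays lay on 1 slide, so no slide block was fitted. The normexp setting used the median spot signal.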

Other observations

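Values on single arrays, chosen after they were seen and with no replicate, stood apart in several TGF-beta genes and cell type markers. How many other genes stand apart likewise is not given here, and hairpin 3 lay farthest from the control over the genes above background on all 4 arrays. On hairpin 3 the integrin gene Itgb6 had a signal of 204.8, beside 41.6 and 72.2 on hairpins 1 and 2 and against 47.6 on the control array. On the same array Igfbp3, a target gene of the pathway, had 456, beside 54.6 and 42.4 and against 64.9 on the control array. The epithelial marker Krt19 had 1169 there, beside 357 and 359 and against 135 on the control array, and the endothelial marker Vwf had 188, beside 55.9 and 16.6 and against 21.5 on the control array. Tgfb2 was also highest on hairpin 3.

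Hairpin 2 stood apart in other genes. Tgfbi, the gene of a TGF-beta induced matrix protein, had a signal of 7222 on hairpin 2, beside 2177 and 1916 on hairpins 1 and 3 and against 2707 on the control array. Lrrc32, whose product holds latent TGF-beta at the cell surface, had 45472 and 44325 on hairpins 1 and 3 and 16281 on hairpin 2, against 24397 on the control array.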
